A study of Mus musculus with 6 samples.

Results

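Choroid plexus epithelial genes were followed in the polysomal mRNAs of hippocampal astrocytes, as 10 genes chosen by name (Ttr, Folr1, Kl, Clic6, Otx2, Aqp1, Kcnj13, Enpp2, Prlr and Slc4a5) of 22086 genes in the counts. All 10 genes were found in the counts and passed the filter on low counts, which kept 13545 genes. The mRNAs were recovered by translating ribosome affinity purification (TRAP), in which eGFP-tagged ribosomes are immunoprecipitated from tissue, from whole hippocampi of 6 weeks-old mice. Both genotypes carried the Aldh1l1:L10a-eGFP transgene, which tags the ribosomal protein L10a under the promoter of the astrocyte gene Aldh1l1, and both carried floxed alleles of the gene of connexin 43 (Cx43). The 3 Cx43KO libraries came from mice that also carried hGFAP-Cre, and the 3 Cx43FL libraries from littermates without Cre. The human GFAP promoter is known to be active in neural progenitors as well as in astrocytes, so that recombination can reach other cells of that lineage.

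The choroid plexus is a vascularized fold of the ventricle wall, covered by an epithelium that secretes the cerebrospinal fluid and forms the blood-cerebrospinal fluid barrier. This epithelium is known for making transthyretin in very large amounts, for moving ions, bicarbonate and water into the ventricle, and for carrying vitamins and hormones across. In the lateral ventricle the plexus is attached along the margin of the hippocampus. The 10 genes were grouped by role into secreted proteins (Ttr, Enpp2), receptors (Folr1, Prlr, Kl), ion and water transport (Slc4a5, Kcnj13, Clic6, Aqp1) and a transcription factor (Otx2).

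The total counts on genes ranged from 14787303 to 15391214 in Cx43FL and from 16056347 to 34733473 in Cx43KO. Levels are given as CPM, counts per M counts on the tested genes with TMM scaling. Before that scaling, 3 counts corresponded to between 0.0864 and 0.203 CPM. Values of a genotype are listed in the order of its replicates 1, 2 and 3 throughout. Gja1, the gene of Cx43, had 92.0, 91.7 and 82.3 CPM in the Cx43FL libraries and 87.2, 98.4 and 95.1 CPM in the Cx43KO libraries, so that this gene did not separate the genotypes (log2 fold change 0.078, standard error 0.28). Whether the bases counted for Gja1 lie in the part of the gene that Cre removes was not examined. The paper reports a test of Cre activity in the brains of its mice, by β-galactosidase activity. Cx43FL and Cx43KO name the libraries by their labels, and each direction given below is one between libraries so labelled. The 10 astrocyte markers summed to between 18383 and 21827 CPM in Cx43FL, and to 10565 CPM, 20097 CPM and 30216 CPM in the Cx43KO libraries. Cx43KO replicate 1 stood apart, with the lowest sum of astrocyte markers and the highest sum of neuron markers (6938 CPM against 1985 to 4075 CPM in the other 5 libraries).

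Among the choroid plexus genes, it was Cx43FL replicate 2 that stood apart. It had the lowest level of the 6 libraries for 10 of the 10 genes, as it had for 21.2% of all tested genes. Its astrocyte markers summed to 18383 CPM, against 19102 CPM and 21827 CPM in Cx43FL replicates 1 and 3. The fold changes and counts of calls of the 10 genes are therefore also given without it. Since whole hippocampi were extracted, fewer cells of a type and less RNA per cell cannot be told apart. None of the 6 libraries is of RNA from before the immunoprecipitation. Untagged mRNA carried through it therefore cannot be told apart from mRNA on tagged ribosomes. In which cell types the ribosomes were tagged was not examined.

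The secreted proteins gave the largest values. Ttr encodes transthyretin, the carrier of thyroid hormone and of retinol-binding protein, and is located at 20665280 to 20674321 on chromosome 18 (all coordinates are of GRCm38). It had 9593, 450.1 and 14872 CPM in the Cx43FL libraries, and 32150.2, 25644 and 21438 CPM in the Cx43KO libraries. All Cx43KO libraries lay above all Cx43FL libraries, and the spread among the Cx43FL libraries was wider than the gap that separated the genotypes. Ttr was the gene with the most counts in every library except Cx43FL replicate 2, where it ranked 301. It took 0.985%, 0.0441% and 1.51% of the counts on genes in the Cx43FL libraries, and 3.23%, 2.66% and 2.0% in the Cx43KO libraries. As a mean over the 3 libraries of a genotype, it stood at 8305 ± 7297 CPM in Cx43FL and at 26411 ± 5397 CPM in Cx43KO (SD, n = 3 libraries). Ttr gave a log2 fold change of 1.67 (standard error 0.83), with an adjusted p of 0.604 (edgeR, quasi-likelihood test; Benjamini-Hochberg over all tested genes).

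Enpp2 (chromosome 15, 54838901 to 54952892) encodes autotaxin, the secreted enzyme that makes lysophosphatidic acid, and is known to be made by oligodendrocytes as well as by the choroid plexus. It had 967, 145 and 1263 CPM in the Cx43FL libraries, and 2999.6, 2907 and 5380.3 CPM in the Cx43KO libraries. The lowest Cx43KO library was thus above the highest Cx43FL library, and Cx43KO replicate 3 was the highest of all. Its log2 fold change of 2.25 (standard error 0.63) was the largest of the 10 genes. For edgeR the unadjusted p was 0.00432 and the adjusted p 0.490, while DESeq2 with its prior on the fold changes gave an adjusted p of 0.0104. The 10 oligodendrocyte markers summed to 628, 1082.5 and 685 CPM in the Cx43FL libraries and to 2813, 1147 and 662 CPM in the Cx43KO libraries, and their part in the Enpp2 values was not tested.

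**Figure D1:**
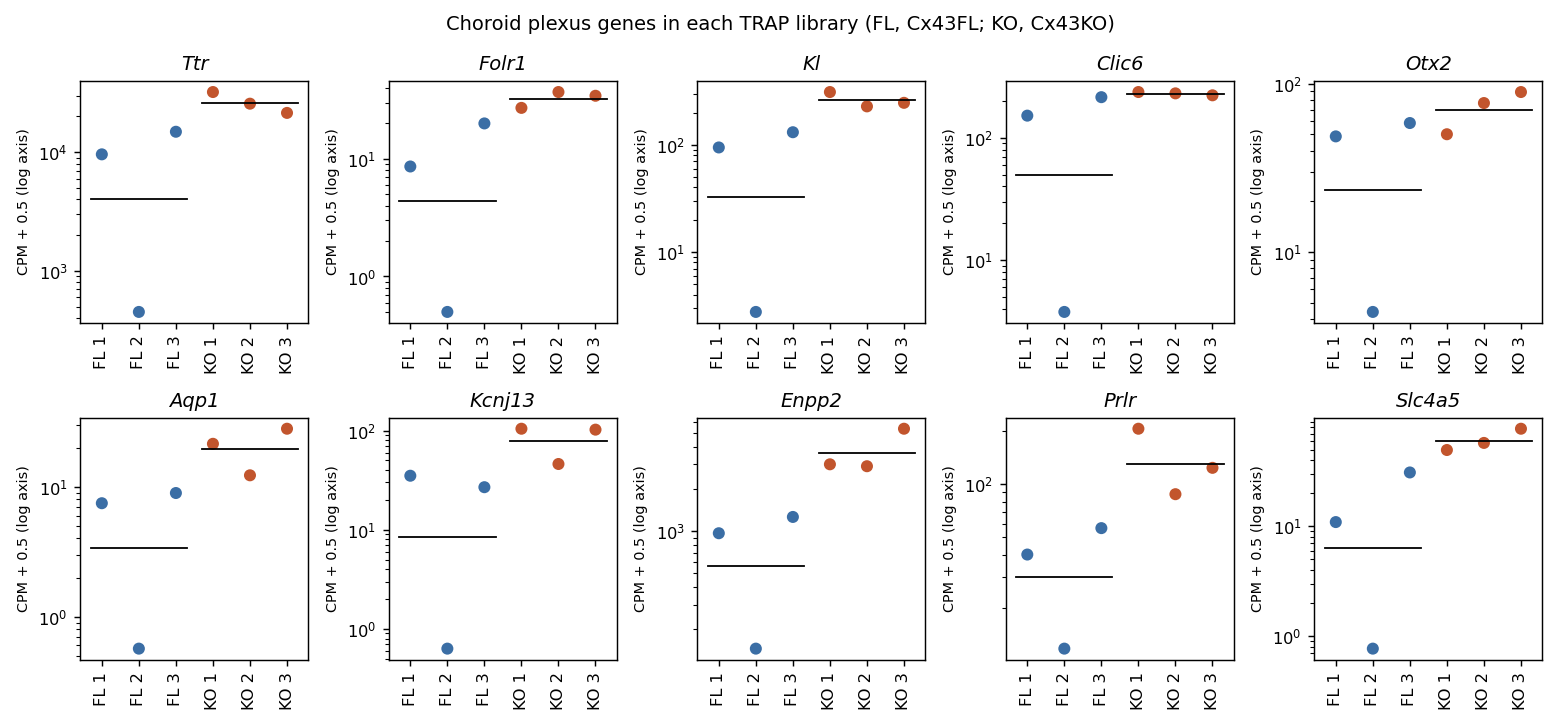
Level of each of the 10 genes in the 6 libraries, as CPM + 0.5 on a log axis (points; blue, Cx43FL; orange, Cx43KO), with the mean of the log values of each genotype as a line. Cx43FL replicate 2 is the lowest point in every panel, and Otx2 is the panel in which the genotypes overlap.

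The receptors showed the same order of genotypes at much lower levels. Folr1 (chromosome 7, 101858331 to 101870788), the folate receptor alpha that carries folate into the cerebrospinal fluid, had 8.10, 0 and 19.5 CPM in the Cx43FL libraries and 26.6, 36.4 and 33.8 CPM in the Cx43KO libraries. With 123, 0 and 299 counts in Cx43FL, it was the one gene of the 10 that was not counted in a library. Its log2 fold change was 1.81 (standard error 1.15).

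Kl (chromosome 5, 150952607 to 150993817) encodes Klotho, the coreceptor of the hormone FGF23, which is also known from kidney and from some neurons. It had 94.1, 2.26 and 131 CPM in the Cx43FL libraries and 311, 228 and 246 CPM in the Cx43KO libraries, without overlap of the genotypes. The log2 fold change was 1.79 (standard error 0.89).

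Prlr (chromosome 15, 10177238 to 10349180), the prolactin receptor, had 39.5, 11.2 and 56.0 CPM in the Cx43FL libraries and 206, 87.5 and 124 CPM in the Cx43KO libraries. Its log2 fold change was 1.97 (standard error 0.54), and edgeR returned an unadjusted p of 0.00406 (adjusted p = 0.490). DESeq2 with its prior gave an adjusted p of 0.0260. Of the 12 Prlr transcripts in the counts, Prlr-202, with 9900 bases, represents the gene. In Cx43FL replicate 2 this transcript had 169 counts, whereas the other 11 had 0 or 1 count each. The gene Gm21973 overlaps 203 bases of Prlr-202 on the same strand, and its own counts were 47, 0 and 33 in the Cx43FL and 30, 159 and 259 in the Cx43KO libraries. The log2 fold changes of the 12 transcripts, tested among all transcripts, ranged from 1.84 to 2.24. Their standard error was 0.53 for Prlr-202 but from 1.01 to 1.19 for the other 11.

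The genes of ion and water transport kept this order too. Slc4a5 (chromosome 6, 83219828 to 83304945), a sodium bicarbonate cotransporter, had 10.4, 0.265 and 30.4 CPM in the Cx43FL libraries and 49.0, 57.0 and 76.9 CPM in the Cx43KO libraries. The log2 fold change was 2.15 (standard error 0.99). Kcnj13 (chromosome 1, 87386363 to 87394729), an inward-rectifier potassium channel, had 34.6, 0.133 and 26.4 CPM in the Cx43FL libraries and 104, 45.6 and 102 CPM in the Cx43KO libraries, and its log2 fold change was 2.04 (standard error 1.05). Exons of Gigyf2 on the opposite strand cover 623 of the 1270 bases of its transcript, and whether the counting used strand is not given in the sources used here. Gigyf2 had 1564, 1267 and 1645 counts in Cx43FL and 2491, 2255 and 1336 in Cx43KO, and its part in the Kcnj13 counts was not tested.

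Clic6 (chromosome 16, 92485736 to 92541243), of the chloride intracellular channel family, gave the most even levels within Cx43KO. It had 151, 3.25 and 215 CPM in the Cx43FL libraries and 237, 231 and 222 CPM in the Cx43KO libraries. Cx43FL replicate 3 nearly reached the Cx43KO libraries, and the log2 fold change of 0.90 (standard error 0.89) was the smallest of the 10. Aqp1 (chromosome 6, 55336432 to 55348555), the water channel of the apical membrane, had 6.98, 0.0663 and 8.47 CPM in the Cx43FL libraries and 21.0, 11.8 and 27.6 CPM in the Cx43KO libraries, and its log2 fold change came to 1.96 (standard error 1.06). Aqp1 had the lowest mean level per transcript length of the 10 genes.

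Otx2 (chromosome 14, 48657677 to 48673819) encodes the homeodomain transcription factor needed to form and maintain the choroid plexus. It had 48.2, 3.91 and 58.0 CPM in the Cx43FL libraries and 49.7, 76.4 and 88.9 CPM in the Cx43KO libraries. Cx43KO replicate 1 lay between Cx43FL replicates 1 and 3, so that Otx2 was the one gene of the 10 whose genotypes overlapped. Its log2 fold change was 0.96 (standard error 0.71).

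The promoter window before the start of the counted Otx2 transcript is shown because it was the one window matched for the 10 genes that held the letters TAATCC, the core motif that Otx proteins bind. Capitals mark the motif, which reads GGATTA on the printed strand. The window of Kl is shown beside it as the gene whose pattern over the libraries was most like that of Ttr. Both are the 250 bases before the start site in RefSeq on GRCm38.p6, read 5′ to 3′ on the strand of the gene, from chr14:48665110-48665359 (minus strand) and chr5:150952357-150952606 (plus strand).
Otx2: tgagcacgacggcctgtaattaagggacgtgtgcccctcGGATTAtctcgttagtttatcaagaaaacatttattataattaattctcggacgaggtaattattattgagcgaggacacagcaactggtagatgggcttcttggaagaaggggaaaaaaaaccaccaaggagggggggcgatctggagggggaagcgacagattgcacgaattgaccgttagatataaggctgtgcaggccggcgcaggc
Kl: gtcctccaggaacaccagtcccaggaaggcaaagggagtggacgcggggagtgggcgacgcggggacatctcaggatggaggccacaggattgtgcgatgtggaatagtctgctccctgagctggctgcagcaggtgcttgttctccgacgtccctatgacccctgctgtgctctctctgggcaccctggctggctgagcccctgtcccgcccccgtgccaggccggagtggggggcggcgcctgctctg
RefSeq windows of 300 bases, from 250 bases before to 50 bases after a start site, were matched for 6 of the 10 genes, in 11 windows. On either strand TAATCC was present in 1 of these 11 windows, and in 7.06% of the 32817 windows of all genes. A match describes these letters alone.

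A gene was called where its adjusted p was below 0.05 and its higher group averaged more than 50 normalized counts (counts at a common library size after TMM). On this rule edgeR's quasi-likelihood test called 0 of the 10 genes, against 0.00738% of all tested genes called higher in Cx43KO. Their adjusted p-values ranged from 0.490 to 0.770. At an unadjusted p below 0.05 with the same minimum, 2 of the 10 (Enpp2 and Prlr) were higher in Cx43KO, against 5.63% of all tested genes. DESeq2 called Enpp2 and Prlr both with its prior and without it, against 0.731% and 0.871% of all tested genes called higher. Every log2 fold change of the 10 was positive, from 0.90 to 2.25, with a median of 1.88. Over all tested genes the median was 0.071, and 7365 of 13545 were positive. The marker lists of other cell types given below had positive medians as well, from 0.755 (neurons) to 1.61 (leptomeninges), except astrocytes at -0.030. Neuron and oligodendrocyte markers were also positive in 10 of 10 genes each. For 9 of the 10 genes the lowest Cx43KO library exceeded the highest Cx43FL library, against 8.08% of all tested genes, and for 0 of the 10 all Cx43KO libraries lay below, against 7.45%. For each of these 9 the exact 2-sided permutation test on log2(CPM + 0.5) gave p = 0.1, the smallest that 3 libraries against 3 allow, and for Otx2 it gave p = 0.2.

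**Figure D2:**
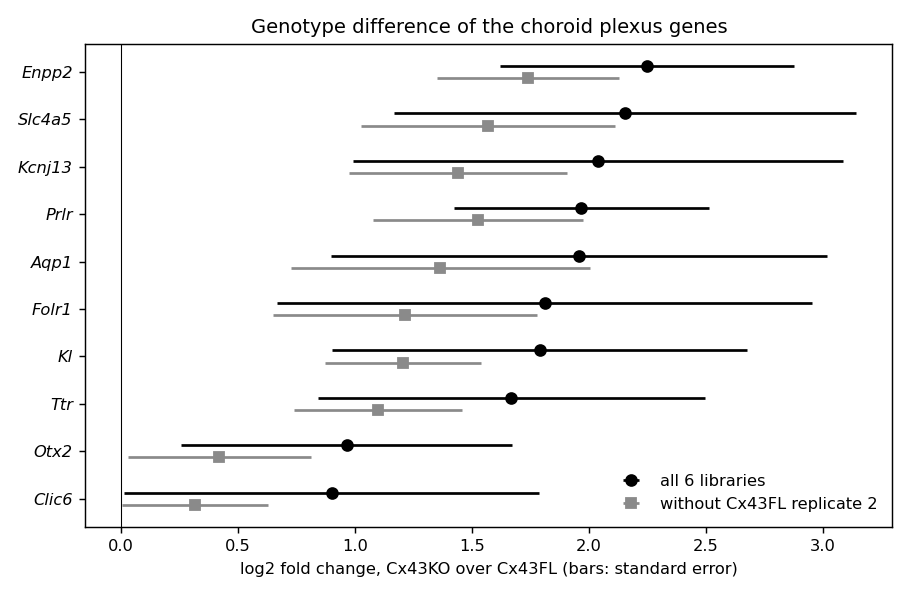
Log2 fold change of Cx43KO over Cx43FL with its standard error, from edgeR's quasi-likelihood fit to all 6 libraries (black) and to the 5 libraries without Cx43FL replicate 2 (grey). All 10 estimates lie above 0 in both fits, and each is smaller without that library.

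How far Cx43FL replicate 2 lay below the other Cx43FL libraries differed between genes. Its level was 3.68% of the mean of Cx43FL replicates 1 and 3 for Ttr, 2.01% for Kl and 1.78% for Clic6. For the transcripts with hardly any counts in that library, Slc4a5 (4 counts), Aqp1 (1 count) and Kcnj13 (2 counts), the share was 1.30%, 0.859% and 0.435%, with exact 95% Poisson intervals from 0.354% to 3.33%, from 0.0217% to 4.79% and from 0.0527% to 1.57%. Folr1 had 0 counts, and 3 counts would have been 1.44%. Otx2, Enpp2 and Prlr kept more, with 7.37%, 13% and 23.5%, where the value of Prlr rests on Prlr-202 alone, since its other transcripts had 0 or 1 count in that library. Amplified reads are not independent molecules, so the intervals describe counting error alone.

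Without Cx43FL replicate 2, the log2 fold changes of the 10 genes were lower, from 0.32 for Clic6 to 1.74 for Enpp2, with a median of 1.29. In the same fit the median was higher for microglia (1.62), oligodendrocyte (1.42) and leptomeningeal markers (1.41). It was lower for neuron (1.075), ependymal (0.744), endothelial (0.738) and astrocyte markers (-0.018). The log2 fold change of Ttr became 1.10 (standard error 0.36), that of Enpp2 1.74 (standard error 0.39) and that of Prlr 1.53 (standard error 0.45). For Clic6 and Otx2, at 0.32 and 0.42, the change was about as large as its standard error of 0.31 and 0.39. In this fit, 6 of the 10 genes (Ttr, Kl, Kcnj13, Enpp2, Prlr and Slc4a5) had an unadjusted p below 0.05, against 3.53% of all genes tested in it, and 0 had an adjusted p below 0.05, the lowest being 0.904. DESeq2 with its prior called Enpp2 (adjusted p = 0.0132) and no other of the 10 without that library, against 0.264% of genes called higher. The levels of all Cx43KO libraries lay above both other Cx43FL libraries for 9 of the 10 genes, against 11.8% of all tested genes. Without Cx43FL replicate 3 the median was higher instead, at 2.45, with values from 1.46 to 3.51. Cx43FL replicate 2 had been singled out by its levels of these same genes. With another library left out, fewer than 6 of the 10 had an unadjusted edgeR p below 0.05. There were 5 without Cx43FL replicate 3, 3 without Cx43KO replicate 1, and 2 each without Cx43FL replicate 1, Cx43KO replicate 2 or Cx43KO replicate 3. The share of all genes was not counted for these fits.

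Compared per length, as CPM per kilobase of transcript, the order of the 10 genes was led by Ttr (22269 ± 4551 in Cx43KO and 7003 ± 6152 in Cx43FL; SD, n = 3 libraries each) and then Enpp2 (1371 ± 511 and 288 ± 211). Both places held in 6 of 6 libraries. The other 8 genes lay far below. In Cx43KO they followed as Kcnj13 (66.0 ± 26.1), Clic6 (61.2 ± 1.90), Kl (51.1 ± 8.48), Otx2 (33.4 ± 9.34), Folr1 (24.6 ± 3.88), Prlr (14.1 ± 6.16), Slc4a5 (11.9 ± 2.81) and Aqp1 (7.66 ± 3.02), in CPM per kilobase. Within Cx43KO, Kcnj13 and Clic6, Folr1 and Prlr, and Prlr and Slc4a5 changed places between libraries, while Clic6 over Kl, Kl over Otx2, Otx2 over Folr1 and Slc4a5 over Aqp1 held in 3 of 3 libraries. In Cx43FL the standard deviation came close to the mean for most genes and passed it for Folr1 (7.0 ± 7.45) and Slc4a5 (2.67 ± 2.995), and apart from Ttr over Enpp2, Enpp2 over Clic6 and Kl over Folr1, no pair of neighbours kept its order in all 3 libraries.

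Within a library, the counts of the other 9 genes were set against those of Ttr, which removes the scaling between libraries. Without Cx43FL replicate 2, Kl was the steadiest, with 9.81 and 8.79 counts per 1000 Ttr counts in Cx43FL replicates 1 and 3, and 9.67, 8.90 and 11.5 in the Cx43KO libraries. Its highest value was 1.31 times its lowest over these 5 libraries, and in Cx43FL replicate 2 it had 5.01. Clic6 had fewer counts per Ttr count in Cx43KO than in the same Cx43FL libraries, with 7.36, 9.0 and 10.4 per 1000 in the Cx43KO libraries against 15.8 and 14.4 in Cx43FL replicates 1 and 3, but Cx43FL replicate 2 had 7.22. Enpp2 ranged from 85.0 to 113 per 1000 in Cx43FL replicates 1 and 3 and Cx43KO replicates 1 and 2, and reached 251 in Cx43KO replicate 3 and 322 in Cx43FL replicate 2. Prlr, read from Prlr-202, had 24.9 per 1000 in Cx43FL replicate 2 and from 3.41 to 6.42 in the other 5 libraries. Otx2 was also highest in Cx43FL replicate 2, with 8.70 per 1000 against 1.55 to 5.03 in the other 5 libraries. With all 6 libraries, the genotypes overlapped for 9 of 9 ratios. Over the 5 libraries without Cx43FL replicate 2, the highest ratio was between 1.31 (Kl) and 3.31 (Slc4a5) times the lowest.

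**Figure D3:**
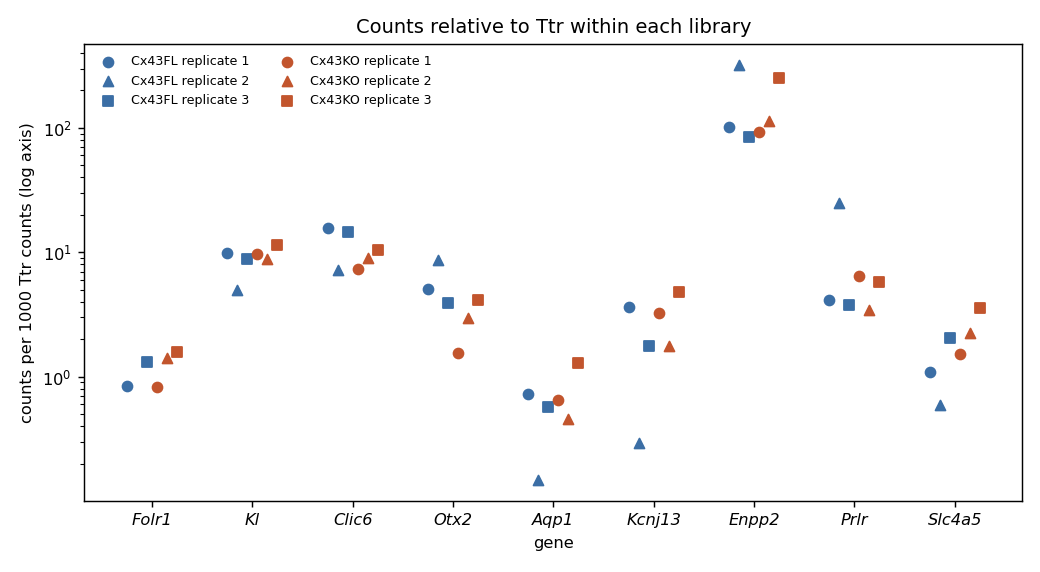
Counts of each of the other 9 genes per 1000 Ttr counts in the same library, on a log axis, with 1 point per library (blue, Cx43FL; orange, Cx43KO). Kl holds the narrowest range over the 5 libraries other than Cx43FL replicate 2, Prlr, Enpp2 and Otx2 are highest relative to Ttr in Cx43FL replicate 2, and the value of 0 of Folr1 in that library is not drawn.

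A second list of 35 genes known for this epithelium was examined, of which 34 were in the counts and could be tested. Of these, 0 were called by edgeR, 14 had an unadjusted p below 0.05 in the direction of Cx43KO and 0 in that of Cx43FL, against 5.63% and 2.64% of all tested genes. Their median log2 fold change was 1.18 (0.86 without Cx43FL replicate 2), and 32 of 34 were positive, against 7365 of all 13545 tested genes. Neuron and oligodendrocyte markers were positive in 10 of 10 genes each. Without Cx43FL replicate 2, 9 of the 34 had an unadjusted p below 0.05 in the direction of Cx43KO, against 3.53% of all genes tested, and 0 were called. In 20 of the 34 the lowest Cx43KO library exceeded the highest Cx43FL library, against 8.08% of all tested genes, and in 20 it exceeded Cx43FL replicates 1 and 3, against 11.8%. Cx43FL replicate 2 was the lowest library for 28 of the 34, against 21.2% of all tested genes. DESeq2 with its prior called 5 of them higher in Cx43KO, namely Igf2, 1500015O10Rik, F5, Cldn2 and Htr2c, against 0.731% of all tested genes.

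Of the 8 genes of this list that encode secreted and surface proteins, 7 were higher in Cx43KO without overlap, against 8.08% of all tested genes. The groups by role divide the list already counted above. Igf2, the insulin-like growth factor 2, had 123, 49.5 and 159.5 CPM in the Cx43FL libraries and 423, 231.5 and 372 CPM in the Cx43KO libraries (log2 fold change 1.63, standard error 0.42). It is known from the leptomeninges as well as from the plexus. Htr2c, the serotonin receptor 2C, had 13.8, 3.91 and 20.6 CPM in Cx43FL and 45.5, 47.5 and 80.1 CPM in Cx43KO (log2 fold change 2.18, standard error 0.58). The log2 fold changes of 1500015O10Rik, which encodes the secreted peptide precursor augurin, and of F5, the coagulation factor V, were 2.04 and 2.63, with standard errors of 0.53 and 0.85. Without Cx43FL replicate 2 they were 1.59 and 2.07. Igfbp2, an IGF-binding protein, Wfdc2 and Ace, the angiotensin-converting enzyme, were the others without overlap, with log2 fold changes of 1.17, 1.74 and 1.31. Igfbp2 was little reduced in Cx43FL replicate 2, with 85.8% of the mean of Cx43FL replicates 1 and 3. Ace had 20.0% and Wfdc2 1.29% (1 count).

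Of the 5 claudins and keratins, 3 were higher in Cx43KO without overlap, against 8.08% of all tested genes. These 3 were claudins, the proteins of tight junctions. Cldn2 had 8.89, 3.05 and 25.4 CPM in the Cx43FL libraries and 53.8, 77.0 and 87.5 CPM in the Cx43KO libraries (log2 fold change 2.55, standard error 0.65; adjusted p = 0.490 with edgeR and 0.00934 with DESeq2 and its prior). For Cldn1 the log2 fold change was 2.58 (standard error 1.04), or 1.99 without Cx43FL replicate 2. Cldn3 had 0 counts in the 3 Cx43FL libraries and 19, 74 and 196 counts in the Cx43KO libraries, so that the mean of 3.40 CPM in Cx43KO was at least 17.2-fold higher than a floor of 3 counts in each Cx43FL library (a mean of 0.197 CPM). Krt18, a keratin of simple epithelia, and Lmx1a, a transcription factor of the dorsal midline, were the 2 genes with a negative log2 fold change (-0.056 and -0.10, both with overlap of the genotypes). These were singled out after their values had been seen.

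Of the 6 genes of ion transport 4 were higher in Cx43KO without overlap, against 8.08% of all tested genes. The log2 fold changes of these 4 were 0.91 for Slc12a2, 1.02 for Slc4a10, 1.04 for Kcne2 and 1.16 for Trpm3. Slc12a2 and Slc4a10, cotransporters that are also known from neurons and glia, were the least reduced of these 6 genes in Cx43FL replicate 2, with 75% and 74.1% of the mean of Cx43FL replicates 1 and 3. The 7 genes of solute and metal transport included 3 without overlap, against the same 8.08%. These were the sulfate transporter Slc13a4 (0.85), the copper transporter Slc31a1 (0.93) and the metalloreductase Steap1 (1.04). Of the 6 remaining genes Calml4, Cab39l and Col9a3 were without overlap, at 1.19, 0.88 and 1.22, again against 8.08%. Col9a3 was not reduced in Cx43FL replicate 2, with 143% of the mean of Cx43FL replicates 1 and 3. Both transcription factors, Msx1 and Lmx1a, overlapped.

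**Figure D4:**
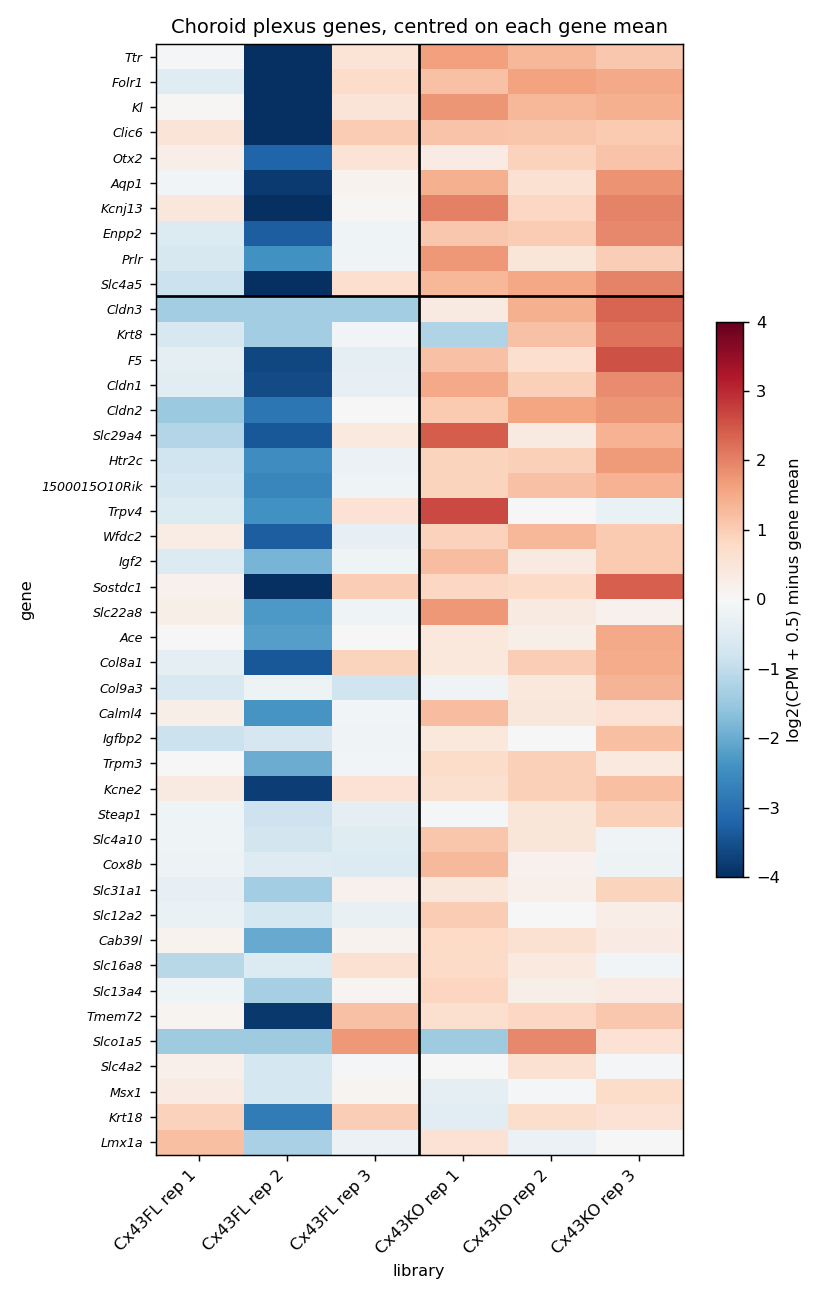
Log2(CPM + 0.5) of the 10 genes (above the black line) and of the 34 other choroid plexus genes (below it, ordered by log2 fold change), minus the mean of each gene over the 6 libraries. Blue is below and red above the mean, with colours ending at 4 on either side, and the column of Cx43FL replicate 2 is the lowest for 10 of 10 genes above the line and 28 of 34 below it.

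Outside both lists, the 5 of all tested genes whose pattern was most like that of Ttr were Prr32, Cgnl1, Wdr86, Zfp185 and Baiap2l1. Likeness was measured as the root mean square difference of log2(CPM + 0.5), centred on the mean of each gene, over the 6 libraries, and was 0.38, 0.41, 0.45, 0.45 and 0.46 for these genes. Prr32 had 17.7, 0 and 22.3 CPM in Cx43FL and 41.5, 47.3 and 53.1 CPM in Cx43KO. Cgnl1, which encodes the junction protein paracingulin, had 10.4, 0.332 and 12.2 CPM in Cx43FL and 29.1, 23.9 and 33.3 CPM in Cx43KO. By the same measure Kl (0.28), Folr1 (0.34) and Clic6 (0.41) were ranked 1, 2 and 4 among 13544 genes. Of the other 9 choroid plexus genes chosen, 9 were within the first 100 of these 13544 genes. Of the 34 genes of the second list, 12 were. Prlr, again read from Prlr-202, was ranked 70 with 0.99 and was the least like Ttr of the 10 genes. All 6 libraries entered this measure, and it was not computed without Cx43FL replicate 2.

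Markers of other cell types were summed in each library beside these values. The 10 ependymal markers, of cells that line the ventricles, summed to 140, 74.2 and 125 CPM in the Cx43FL libraries and to 97.4, 219.5 and 176 CPM in the Cx43KO libraries. They were thus also lowest in Cx43FL replicate 2, but Cx43KO replicate 1 lay within the Cx43FL range, and 2 of 10 genes were without overlap. The 8 leptomeningeal markers summed to between 46.2 and 71.7 CPM in Cx43FL and between 101 and 188 CPM in Cx43KO, with Cx43FL replicate 2 the highest of the Cx43FL libraries and with Lum and Col3a1 at 0 in at least 1 library. Endothelial markers summed to between 9.75 and 13.4 CPM in Cx43FL and between 15.96 and 24.95 CPM in Cx43KO, and 5 of the 10 (Cldn5, Flt1, Tek, Esam and Emcn) were at 0 in at least 1 library. Microglia markers summed to between 29.6 and 51.1 CPM in Cx43FL and between 80.1 and 132 CPM in Cx43KO, with 5 of 10 at 0 in at least 1 library (Tmem119, C1qa, Itgam, Trem2 and Fcrls). Genes without overlap and higher in Cx43KO numbered 2 of 7 tested for the leptomeninges, 1 of 7 for endothelium, 3 of 8 for microglia, 3 of 10 for neurons, 1 of 10 for oligodendrocytes and 0 of 10 for astrocytes, against 8.08% of all tested genes. In Cx43KO replicate 1, where neuron and oligodendrocyte markers were highest, Ttr was highest too. Cx43KO replicate 3 had the highest sum of leptomeningeal markers and the lowest Ttr of the Cx43KO libraries. The order of Ttr was not that of all the choroid plexus genes chosen. Without Ttr these summed to 4003.7, 3680.2 and 6301.7 CPM in the Cx43KO libraries. Without Enpp2 as well, the sums were 1004.1, 773.6 and 921.4 CPM. The part of these cell types in the genotype differences was not tested.

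**Figure D5:**
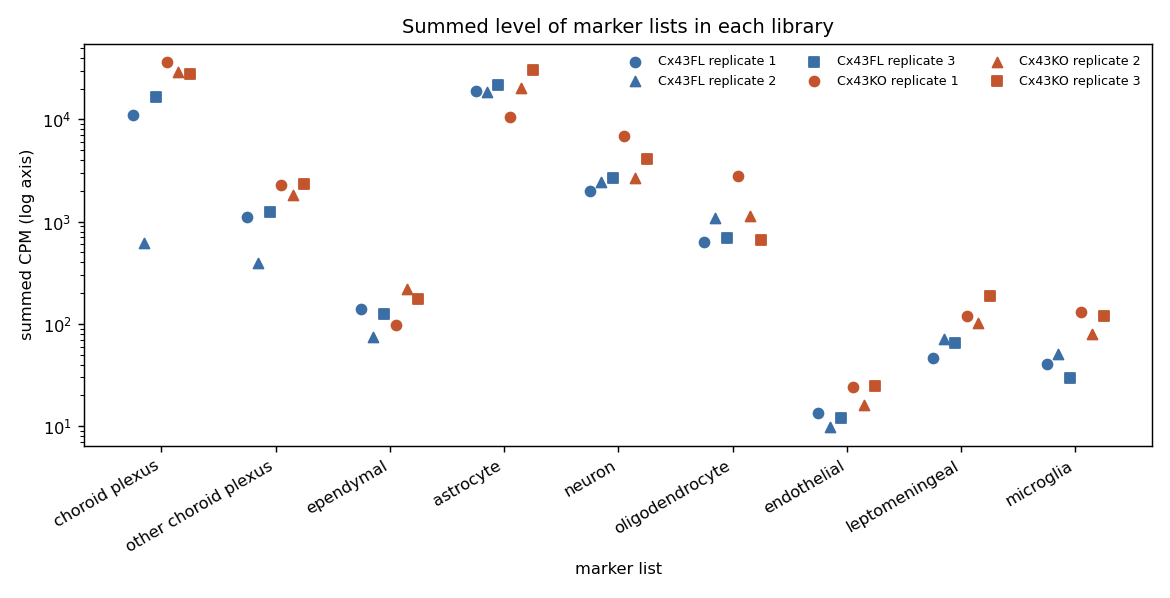
Summed CPM of each marker list in the 6 libraries on a log axis (blue, Cx43FL; orange, Cx43KO). In both choroid plexus lists Cx43FL replicate 2 lies far below the other libraries and the Cx43KO libraries lie above the Cx43FL libraries. The Cx43KO libraries also lie above the Cx43FL libraries for the leptomeningeal, endothelial and microglia markers. For the astrocyte, neuron, oligodendrocyte and ependymal markers the genotypes overlap.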

How the data were processed

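Polysomal mRNAs of hippocampal astrocytes were sequenced in 3 Cx43FL and 3 Cx43KO libraries. The authors amplified the RNA with the NuGEN Ovation kit, filtered the reads in Eoulsan, aligned them with STAR on mm10 (Ensembl annotation), removed reads matching more than once, counted with HTSeq-count 0.5.3 (version per the submitters' processing notes) and deposited raw counts on Ensembl transcripts. Of 75466 transcripts, 73157 were matched by identifier to GENCODE M21 (GRCm38), and the unmatched ones held 1.60% to 1.78% of the counts. For every gene the transcript with the largest count summed over the 6 libraries was kept. Transcripts of a gene can share reads, the Folr1 transcripts Folr1-204 and Folr1-205 having the same counts in each library.

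The test of genotype was run in edgeR 4.0.16 under R 4.3.3 (TMM, filterByExpr, quasi-likelihood F test, genotype alone in the model, Benjamini-Hochberg over 13545 genes). Genes were called at an adjusted p below 0.05 with a mean normalized count above 50 in the higher group. Standard errors were taken from the log2 fold change and the square root of its F statistic. For single genes, log2(CPM + 0.5) was permuted between genotypes exactly (2-sided). DESeq2 1.42.0 was an alternative, run on the same genes. The fits were tested on simulated data. Summaries were made with scipy 1.17.1, numpy 2.4.6 and pandas 2.3.3.

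The 10 genes, the gene lists and the gene representation were chosen with earlier results of these data known. Named genes are the 10 genes, the genes of the second list that were called, did not overlap between genotypes or were among its 5 highest by mean CPM, and the 5 genes outside both lists most like the member with the highest mean CPM. Of the second list, 2900040C04Rik was not matched. Nothing in the labels names separate animals for the libraries, so p-values measure the spread between these libraries. No pair of libraries agreed within sampling noise (chi-square per degree of freedom 33.7 or more). Library numbers assigned by the authors lie in distinct ranges for each genotype, and any difference between such sets cannot be told apart from genotype.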

Additional observations from a re-analysis of the deposited data

How the results depend on the processing

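Over 166 values of the log2 fold changes of the 10 genes under the alternatives, 166 were positive, from 0.30 to 3.51. In 5 of them the adjusted p passed below 0.05, for Enpp2 with DESeq2 with and without the prior and with the prior without Cx43FL replicate 2, and for Prlr with DESeq2 with and without the prior. The count of the 10 genes called rose from 0 to 2 with either form of DESeq2 and at the unadjusted p, and to 1 with DESeq2 and its prior without Cx43FL replicate 2. In the second list it rose from 0 to 5 with DESeq2 and its prior, to 6 without the prior and to 14 at the unadjusted p. Over all tested genes it moved from 1 to 113 with DESeq2 and its prior, 137 without the prior, 1121 at the unadjusted p, 2 with the replicate block, and 0 with at least 10 counts in every library or with transcripts summed. With each library left out in turn, it ranged from 0 to 11, the 11 being without Cx43KO replicate 1. With at least 10 counts in every library, Folr1, Aqp1, Kcnj13 and Slc4a5 could not be tested. The causes of these shifts were not tested.

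With the replicate number as a block, the log2 fold changes of Ttr, Enpp2 and Prlr were 2.45, 2.64 and 2.17, and no call of the 10 genes changed. The numbers were not taken as pairs, since the deviations of same-numbered libraries from their genotype means correlated at 0.0114, -0.00402 and -0.0547 across genes. Scaling without the 10 genes, which changed no call, and DESeq2 without Cx43FL replicate 2 were added after seeing the data. Depth limits the comparison for Folr1, Aqp1, Kcnj13 and Slc4a5, with 0 to 4 counts in Cx43FL replicate 2.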
